A study of Homo sapiens with 6 samples.

Results

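Polycomb repressive complex 2 (PRC2) was followed through 10 of its subunit genes in Calu3 cells after siRNA against BRD8. The 10 genes, EZH1, EZH2, EED, SUZ12, RBBP4, RBBP7, JARID2, PHF1, MTF2 and PHF19, were selected by symbol from the 26364 genes of the deposited expression table, and all of them were found there. The selection was made with earlier results of this comparison known, so the differences of these 10 genes between the groups are given as a description, without a test of their own.

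PRC2 is the enzyme that methylates histone H3 at the lysine marked H3K27, a modification that keeps developmental genes silent. EZH2 or its paralog EZH1 is the catalytic subunit, which is active only when bound to EED, the reader of the methyl mark, and SUZ12, the scaffold. RBBP4 and RBBP7 are histone chaperones that the complex shares with other chromatin complexes. PHF1, MTF2 and PHF19 on one side, and JARID2 with AEBP2 on the other, are accessory subunits that bind SUZ12 in alternative forms of the complex and help to bring it to chromatin. EZH2 is widely known as a gene whose mRNA is higher in dividing cells and in many carcinomas, lung carcinomas included.

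Calu3 is an established line of epithelial cells from a human lung adenocarcinoma. Of the 6 libraries, 3 came from cells transfected with siRNA against BRD8, which encodes a bromodomain subunit of the TIP60 histone acetyltransferase complex, and 3 from cells given a negative control siRNA, each labelled with 20 nmol of siRNA. RNA was sequenced from a single end with a kit that does not mark strand, and each library held 33640814 to 37896467 reads assigned to genes. The study's question is which transcripts depend on BRD8 in lung epithelial cells. The labels name 1 siRNA reagent per group and are silent on whether the 3 libraries of a group were separate cultures, so the p-values rest on a spread that may be only technical. Values are normalized counts, which are read counts scaled by 1 size factor per library.

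The targeted gene BRD8 had 1312, 1084 and 1156 normalized counts in the libraries of BRD8 siRNA, against 2751, 2928 and 3067 in those of control siRNA. Its log2 fold change was -1.30 with a standard error (SE) of 0.0904 (limma, Benjamini-Hochberg adjusted p = 1.13e-04). The 6 epithelial markers EPCAM, CDH1, KRT8, KRT18, KRT19 and KRT7 lay between 14460 and 206896 normalized counts in every library, with a summed level of 443017 to 501814 after BRD8 siRNA and 337933 to 426241 after control siRNA. They did not move alike. CDH1 and KRT8 were called higher by limma, KRT19 was higher without overlap and without a call, and EPCAM, KRT18 and KRT7 overlapped. Of 5 fibroblast markers COL1A2 had 0 reads in all libraries, and the sum of the 5 was 210 to 228 after BRD8 siRNA and 213 to 225 after control siRNA. The members of that list differed, since LUM rose to 54.7 ± 10.9 normalized counts after BRD8 siRNA, against 28.5 ± 4.18 after control siRNA (SD, n = 3 each; limma, Benjamini-Hochberg adjusted p = 0.0211), while COL1A1 had 162 ± 8.36 after BRD8 siRNA and 189 ± 7.96 after control siRNA without overlap and without a call, and COL3A1 and DCN stayed under 10 in every library. The LUM call was lost without BRD8 library 1, BRD8 library 3 or control library 3. Of 3 blood markers PTPRC and CD3E averaged under 10 normalized counts. CD68 was called higher by limma, at 1926 ± 155 after BRD8 siRNA and 1486 ± 189 after control siRNA (SD, n = 3 each). All 3 endothelial markers averaged under 10, and of these VWF was higher after BRD8 siRNA without overlap. The part of these markers in the values of the PRC2 genes was not tested. Control library 2 stood apart from the other control libraries on the second principal component, which held 20.6% of the variance, so results that rest on it are given with and without it. Longer genes had on the whole lower fold changes, with a Spearman coefficient across 14820 genes of -0.161 with all libraries and -0.291 without control library 2. Genes are not independent replicates, and these coefficients are descriptions.

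The proximal promoters of SUZ12 and EZH2, the members with the firmest differences, and of EZH1, the paralog that takes the place of EZH2, are shown to set the genes beside their sequence. Each run gives the 250 bases before the RefSeq start on GRCh38.p14, 5′ to 3′ on the strand of the gene, and capitals mark the motif matches described next.
SUZ12, chr17:31936757-31937006, plus strand: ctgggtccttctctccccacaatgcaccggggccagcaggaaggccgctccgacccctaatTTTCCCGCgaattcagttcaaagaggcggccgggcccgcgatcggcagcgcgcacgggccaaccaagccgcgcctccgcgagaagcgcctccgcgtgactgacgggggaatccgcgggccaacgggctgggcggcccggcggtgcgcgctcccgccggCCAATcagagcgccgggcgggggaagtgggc
EZH2, chr7:148884292-148884541, minus strand: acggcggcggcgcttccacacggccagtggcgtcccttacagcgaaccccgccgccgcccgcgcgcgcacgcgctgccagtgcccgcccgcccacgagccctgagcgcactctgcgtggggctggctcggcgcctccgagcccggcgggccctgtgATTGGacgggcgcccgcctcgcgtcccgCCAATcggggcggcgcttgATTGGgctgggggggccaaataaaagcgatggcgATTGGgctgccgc
EZH1, chr17:42745041-42745290, minus strand: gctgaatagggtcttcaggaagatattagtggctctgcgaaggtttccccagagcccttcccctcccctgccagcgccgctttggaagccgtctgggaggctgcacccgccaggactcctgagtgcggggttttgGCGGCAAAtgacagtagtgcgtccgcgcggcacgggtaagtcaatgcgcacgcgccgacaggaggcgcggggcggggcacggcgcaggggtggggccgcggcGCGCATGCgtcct

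A total of 5 motifs was searched as exact letters on both strands of 35116 such windows, and the 10 members had 15 windows because 5 of them have an alternative start. The E2F motif, searched as TTTCCCGC, TTTCGCGC, TTTGCCGC and TTTGGCGC, stood in 2.79% of all windows and in 1 window each of SUZ12, EZH1 and PHF19. In SUZ12 it starts 189 bases before the annotated start. The CCAAT box bound by NF-Y was found in 32% of all windows and in 10 of the 15 windows of the members, which belong to 7 genes. The windows of RBBP4 overlap, and the box in its second window is also in its first. The window of EZH2 holds 4 CCAAT boxes, which start 94, 66, 47 and 13 bases before the start and do not overlap, whereas the window at its second start holds none of the motifs. SUZ12 holds 1 CCAAT box at 31 bases. The NRF1 motif GCGCATGC, in 2.63% of all windows, was matched in EZH1 alone among the members. The YY1 motif AAGATGGC, in 1.36% of all windows, was matched in PHF19 and RBBP7, and the ETS motif CCGGAAGT, in 3.42%, in no member. The windows of SUZ12 and EZH2 had a GC content of 72.8% and 75.6% with 34 and 38 CpG dinucleotides, where the median window had 58% and 11. A match of letters is a description of the window and does not show that a factor binds there.

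Among the core subunits, SUZ12 and EZH2 were lower after BRD8 siRNA, while EED, EZH1 and RBBP7 had groups that overlapped. SUZ12 was measured at 2346, 2283 and 2518 normalized counts after BRD8 siRNA and at 3786, 3113 and 3971 after control siRNA. Every BRD8 library lay below every control library, and the lowest control value was that of library 2. The means were 2382 ± 122 and 3623 ± 452 (SD, n = 3 each), a difference of -33.9% and a log2 fold change of -0.60 (SE 0.1, 95% confidence interval -0.83 to -0.37). In absolute size this is larger than the log2 fold change of 90.1% of the 15354 genes tested. Without control library 2 it was -0.70, and after the trend with transcript length and GC content was taken out it was -0.53.

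The catalytic subunits differed from each other. EZH2 had 1061, 960 and 928 normalized counts after BRD8 siRNA, against 1171, 1179 and 1350 after control siRNA. The groups did not overlap, and BRD8 library 1 and control library 1 were the closest pair. The means were 983 ± 69.7 and 1233 ± 101 (SD, n = 3 each), a difference of -20.2% with a log2 fold change of -0.33 (SE 0.0912, 95% confidence interval -0.53 to -0.12), which was -0.36 without control library 2. EZH1 had 982, 912 and 878 normalized counts after BRD8 siRNA and 860, 880 and 932 after control siRNA, so that both the highest and the second lowest of the 6 values came from BRD8 siRNA. Its log2 fold change was 0.05 (SE 0.0812) with an interval of -0.13 to 0.24.

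EED, which binds the methylated histone tail and stimulates the enzyme, had 531, 495 and 539 normalized counts after BRD8 siRNA and 531, 605 and 641 after control siRNA. The groups overlapped at control library 1, which lay within the BRD8 range, and the log2 fold change was -0.18 (SE 0.0972). The 2 histone chaperones RBBP4 and RBBP7 follow. RBBP4 had 4411, 4224 and 4445 normalized counts after BRD8 siRNA, all below the 4793, 4488 and 5027 after control siRNA, with a log2 fold change of -0.13 (SE 0.0714). RBBP7 had 7649, 7926 and 7872 after BRD8 siRNA and 7823, 8725 and 8297 after control siRNA, with overlap and a log2 fold change of -0.08 (SE 0.0694). The exons of RBBP4 share 1706 bases, 21.3% of their length, with SYNC on the opposite strand, and those of RBBP7 share 6.57% with TXLNG. Reads there cannot be assigned without strand. SYNC had 78.4 ± 21.1 and TXLNG 1326 ± 33.4 normalized counts after BRD8 siRNA, against 46 ± 4.67 and 1732 ± 134 after control siRNA (SD, n = 3 each).

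**Figure D1:**
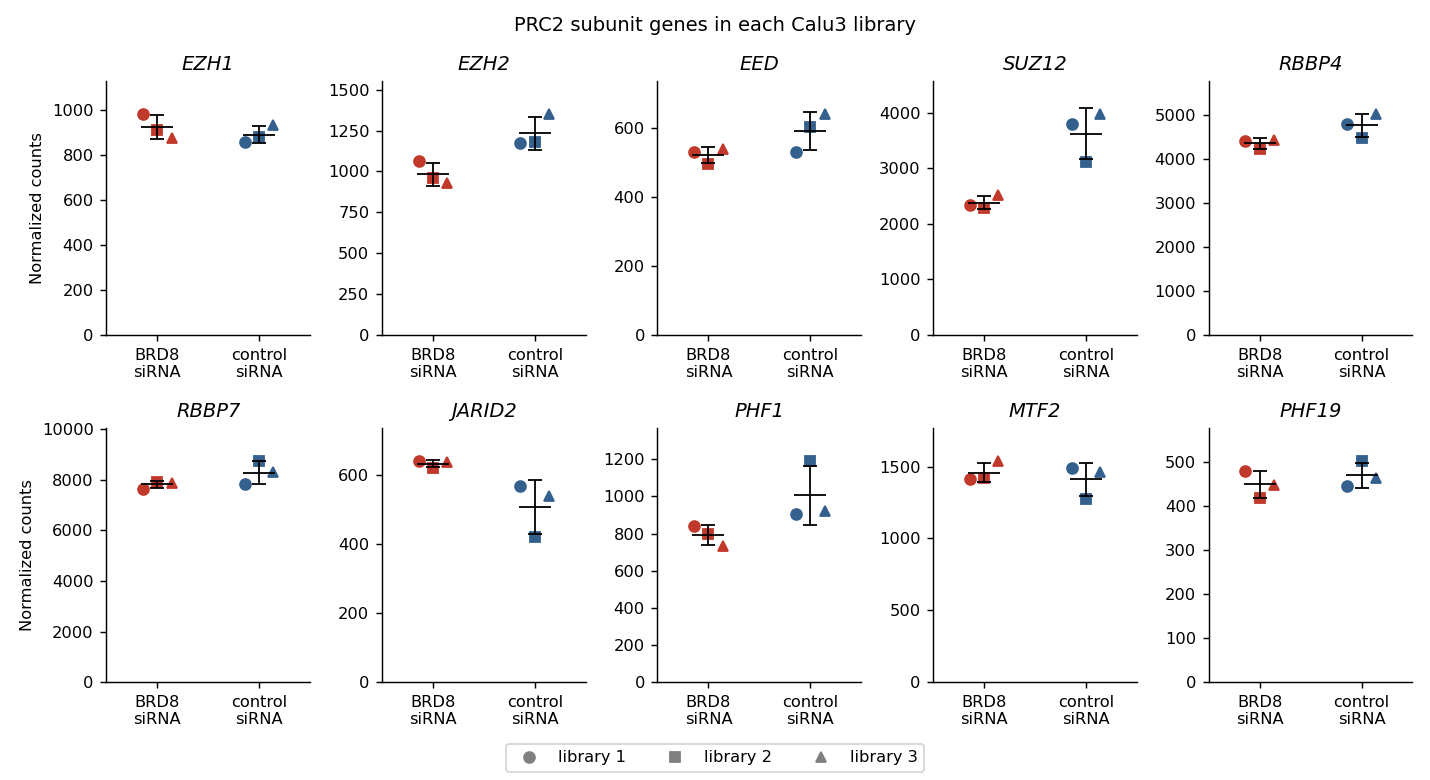
Normalized counts of the 10 subunit genes in each library, with BRD8 siRNA at the left and control siRNA at the right of each panel, points for libraries, the long line for the mean and bars for ±1 SD over 3 libraries. SUZ12, with 2283 to 2518 after BRD8 siRNA and 3113 to 3971 after control siRNA, shows the widest gap, and in JARID2 and PHF1 the square of control library 2 lies apart from the other control libraries.

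Of the accessory subunits PHF1 was lower and JARID2 higher in every BRD8 library than in any control library, and MTF2 and PHF19 overlapped. PHF1, a Tudor and PHD finger protein of the Polycomb-like family, had 841, 798 and 734 normalized counts after BRD8 siRNA and 907, 1189 and 924 after control siRNA. The groups did not overlap, and control library 2 was the highest of all. Its means were 791 ± 54 and 1007 ± 158 (SD, n = 3 each), with a log2 fold change of -0.34 (SE 0.117) that was -0.21 without control library 2. Its paralog MTF2 had 1417, 1422 and 1537 normalized counts after BRD8 siRNA, against 1492, 1278 and 1461 after control siRNA, a log2 fold change of 0.05 (SE 0.0858). PHF19, the third paralog, had 479, 418 and 448 after BRD8 siRNA, against 444, 501 and 462 after control siRNA, a log2 fold change of -0.07 (SE 0.0946). MTF2 and PHF19 both had overlapping groups, and the log2 fold change of MTF2 was -0.02 without control library 2.

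JARID2, a catalytically inactive Jumonji protein that is itself methylated by PRC2 and stimulates it, was the member with the largest positive log2 fold change. It had 640, 621 and 637 normalized counts after BRD8 siRNA and 568, 420 and 538 after control siRNA. Every BRD8 library lay above every control library, and control library 2 was the lowest. The means were 633 ± 10.3 and 508 ± 78.1 (SD, n = 3 each), with a log2 fold change of 0.33 (SE 0.118, 95% confidence interval 0.06 to 0.60) that was 0.20 without control library 2. Over the 10 members, control library 2 was the lowest control library for 4, the highest for 3 and between the others for 3.

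Over all genes, limma called 10.1% higher and 8.93% lower at a Benjamini-Hochberg adjusted p under 0.05. Among the 10 members, all of which passed the filter on low values, SUZ12 and EZH2 were past that threshold and lower, 0 were past it and higher, and 8 were not past it. With edgeR and DESeq2 0 were past it and higher as well, and DESeq2 called PHF1 lower besides SUZ12 and EZH2. Groups that did not overlap occurred in 18.9% of all genes with BRD8 siRNA higher and in 17.9% with BRD8 siRNA lower. Of the members, JARID2 was of the first kind and SUZ12, EZH2, PHF1 and RBBP4 were of the second. Because the members were chosen with this contrast in view, nothing is read from these counts against the shares of all genes. The median log2 fold change of the 10 members was -0.11, where that of all 15354 genes tested was -0.01, and 7 of the members had a negative value, as did 52% of all genes. In the authors' deposited table SUZ12 at -0.61 (SE 0.114), EZH2 at -0.33 (SE 0.109) and PHF1 at -0.35 (SE 0.133) had an adjusted p under 0.05 and were lower after BRD8 siRNA, as were 10.1% of the genes with an adjusted p in that table.

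**Figure D2:**
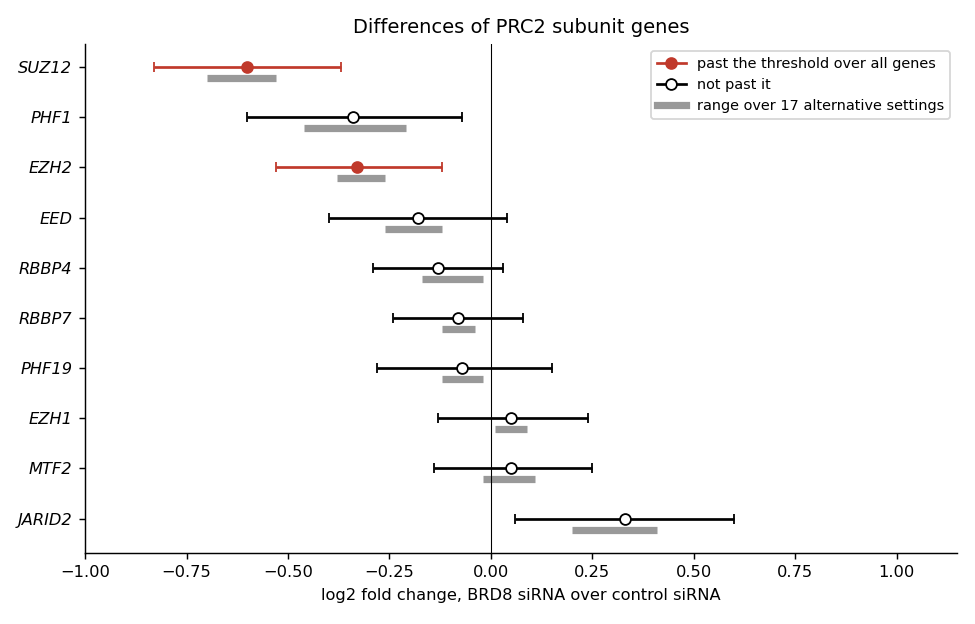
Log2 fold change of each member, BRD8 siRNA over control siRNA, with bars for the 95% confidence interval of the limma fit, red for members past the threshold over all genes and gray bands for the range over 17 alternative settings. SUZ12 at -0.60 and JARID2 at 0.33 mark the ends, and the gray bands of SUZ12, PHF1, EZH2, EED, RBBP4, RBBP7 and PHF19 lie below 0.

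The call of SUZ12 held in all 17 alternative settings, with a log2 fold change between -0.70 and -0.53. The call of EZH2 held in 13 of 17, between -0.38 and -0.26. These were all 11 settings that kept the 6 libraries and 2 of the 6 fits with 1 library left out. The EZH2 call was lost without BRD8 library 2, BRD8 library 3, control library 1 or control library 3. The settings share their libraries and are not separate support for a call. PHF1 passed the threshold in 4 of the 17 settings and JARID2 in 2, and EZH1, EED, RBBP4, RBBP7, MTF2 and PHF19 passed it in none. The direction was the same in all settings for 9 members and in 16 of 17 for MTF2.

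**Figure D3:**
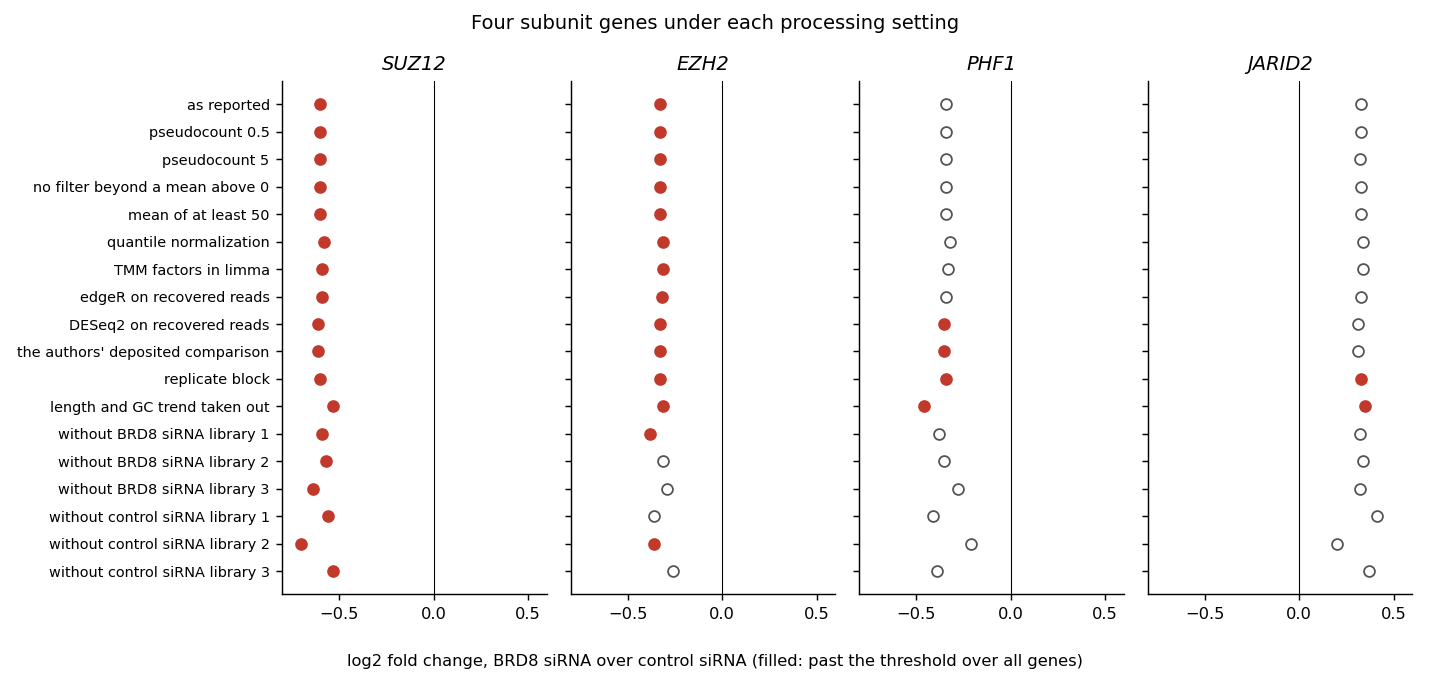
Log2 fold change of SUZ12, EZH2, PHF1 and JARID2, BRD8 siRNA over control siRNA, under the reported setting and each of the 17 alternatives, filled where the gene passed the threshold over all genes. SUZ12 is filled throughout, EZH2 in 13 alternatives, PHF1 in 4 and JARID2 in 2, and leaving out control library 2 brings PHF1 to -0.21 and JARID2 to 0.20.

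Levels were compared between genes as normalized counts per kilobase of exon, with exon lengths from GENCODE v29, which is on another build than the data. By level per kilobase RBBP7 stood first in both groups, with a mean of 2867 after BRD8 siRNA and 3038 after control siRNA. After BRD8 siRNA SUZ12, at 522, 508 and 561 per kilobase, overlapped with RBBP4, at 550, 526 and 554. After control siRNA SUZ12, at 843, 693 and 884, was above RBBP4, at 597, 559 and 626, in every library. PHF1, MTF2 and EZH2 followed, with means of 340, 353 and 321 per kilobase after BRD8 siRNA and 432, 342 and 403 after control siRNA. Their ranges overlapped after BRD8 siRNA, and after control siRNA MTF2, at 310 to 361, lay below PHF1 and EZH2, which overlapped each other. EZH1 and EED came next, at means of 199 and 144 per kilobase after BRD8 siRNA and 192 and 163 after control siRNA. JARID2 and PHF19 were the lowest members. After BRD8 siRNA JARID2, at 106 to 109 per kilobase, was above PHF19, at 87.9 to 101, and after control siRNA their ranges overlapped at 71.4 to 96.5 and 93.2 to 105.

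The share of a paralog within its pair or family does not depend on the size factor of a library. EZH2 made up 62.1%, 61.5% and 61.6% of the level per kilobase of EZH2 and EZH1 together after BRD8 siRNA and 67.4%, 67% and 68.7% after control siRNA. The groups did not overlap, and the spread within each was small, with means of 61.7% ± 0.335 and 67.7% ± 0.891 (SD, n = 3 each). EZH2 remained the more abundant of the catalytic pair in every library, at 1.59 to 1.64 times the level of EZH1 after BRD8 siRNA and 2.03 to 2.2 times after control siRNA. JARID2 made up 25.1%, 25.3% and 25.4% of JARID2 and AEBP2 together after BRD8 siRNA and 20%, 17.8% and 19.9% after control siRNA, again without overlap. AEBP2, the zinc finger partner of JARID2 in that form of the complex and no member of the 10, had 1868 ± 36.2 normalized counts after BRD8 siRNA and 2115 ± 171 after control siRNA (SD, n = 3 each).

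PHF1 made up 44.8%, 44.2% and 40.3% of the level per kilobase of the 3 Polycomb-like paralogs after BRD8 siRNA and 46.1%, 55.1% and 46.8% after control siRNA. The groups came close at 44.8% and 46.1%, and the highest share was that of control library 2. The shares of MTF2 overlapped, with means of 44.9% after BRD8 siRNA and 39.4% after control siRNA, and so did those of PHF19, with means of 12% after BRD8 siRNA and 11.3% after control siRNA. RBBP7 made up 83.6%, 84.7% and 83.9% of the chaperone pair after BRD8 siRNA and 82.8%, 85.1% and 82.9% after control siRNA, with overlap. Within the trimer of SUZ12, EED and EZH2, the share of SUZ12 was 51.5%, 53.1% and 55.4% after BRD8 siRNA and 61.5%, 55.7% and 58.9% after control siRNA, close to each other at 55.4% and 55.7%. SUZ12 stood at 3.57, 3.73 and 3.77 times the level per kilobase of EED after BRD8 siRNA and at 5.77, 4.16 and 5 times after control siRNA. The ratio of EZH2 to EED overlapped between the groups, at 2.04 to 2.37 after BRD8 siRNA and 2.31 to 2.62 after control siRNA. All these shares use the values that chose the members and carry no test.

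**Figure D4:**
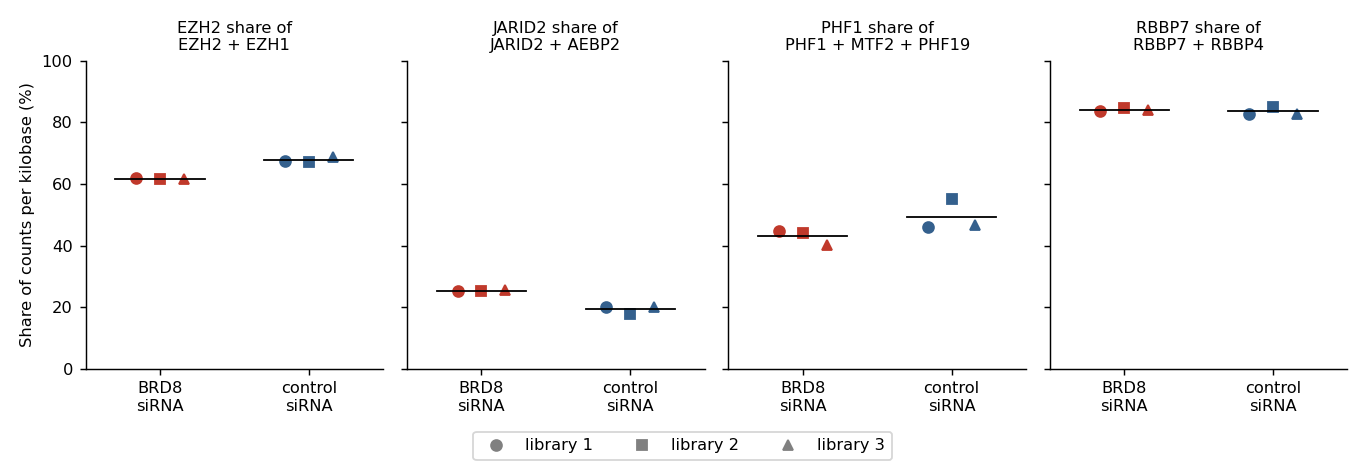
Share of 1 subunit gene within its paralog or partner set in percent of the summed normalized counts per kilobase, by library, with BRD8 siRNA at the left, control siRNA at the right and a line at the mean of 3 libraries. The EZH2 share is 61.5% to 62.1% after BRD8 siRNA and 67% to 68.7% after control siRNA, the JARID2 share 25.1% to 25.4% and 17.8% to 20%, and the RBBP7 share overlaps.

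SUZ12 has a close copy, the pseudogene SUZ12P1, with reads of its own in the table, and reads of near-identical copies can be split between them. SUZ12P1 had 204, 169 and 189 normalized counts after BRD8 siRNA and 322, 221 and 331 after control siRNA. It fell with a log2 fold change of -0.62 (SE 0.165, limma, Benjamini-Hochberg adjusted p = 0.0317), a call that was lost in 5 of the 6 fits with 1 library left out and held without control library 2. The ratio of SUZ12P1 to SUZ12 in normalized counts was 0.0868, 0.074 and 0.0749 after BRD8 siRNA and 0.0851, 0.0711 and 0.0834 after control siRNA, with overlap. How the authors' counting treated reads that fit both is not given in the sources used here, so the values of both genes are uncertain to that extent. GENCODE v29 also names the pseudogenes RBBP4P1 to RBBP4P6 of RBBP4 and EZH2P1 of EZH2, none of which has values in the deposited table. The handling of reads that fit these copies is likewise not given, so RBBP4, EZH2 and their shares carry the same uncertainty.

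The patterns most like those of EZH2 and EZH1 across the 6 libraries were sought among the 13081 genes that averaged 50 normalized counts or more, as the smallest root-mean-square difference of log2 values centred on each gene's mean. For EZH2 the closest were BAG2 at 0.0357, GLDC at 0.0429, IFT122 at 0.0471, KNSTRN at 0.0475 and NEDD9 at 0.0479, where the median gene was at 0.228. All 5 were lower after BRD8 siRNA, with log2 fold changes of -0.28 to -0.41. For EZH1 the closest were TFDP1 at 0.0259, BRD2 at 0.0272, CUL7 at 0.0273, EXT1 at 0.0287 and PITPNA at 0.0288, where the median gene was at 0.171. None of these 5 passed the threshold. With 6 libraries in 2 groups, likeness follows mainly from the fold change.

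Whether other subunits and inhibitors of PRC2 passed the test depended on control library 2 and on the terms of the fit. Of the 5 listed, 4 were tested, and 0 were called by limma, edgeR or DESeq2 with all 6 libraries and no further terms, while 1 of the 4, LCORL, had an unadjusted p under 0.05 and was higher. Without control library 2 limma called 2 lower, LCOR and AEBP2, and with the replicate block, as with the trend taken out, it called 1 higher, LCORL, and 1 lower, LCOR. Over all genes limma called 10.1% higher and 8.93% lower with all 6 libraries, or 2920 of 15354. It called 5229 without control library 2, 3901 with the replicate block, and 4949 of 14820 with the trend taken out. The median log2 fold change of the 4 tested was 0.02, and the inhibitor EZHIP had 0 reads in all 6 libraries. LCOR, whose locus also encodes a PRC2 subunit, had 2110, 1804 and 2279 normalized counts after BRD8 siRNA and 3352, 1928 and 2983 after control siRNA. Its log2 fold change was -0.38 (SE 0.188, limma, Benjamini-Hochberg adjusted p = 0.193), with groups that overlapped through control library 2. Without that library it was -0.62 and LCOR was called lower, as it was with the replicate block and with the trend of length and GC content taken out. AEBP2 had a log2 fold change of -0.18 (SE 0.0804, limma, Benjamini-Hochberg adjusted p = 0.166), which was -0.24 without control library 2.

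PRC1, the complex that ubiquitinates histone H2A and reads the mark of PRC2, had 7 of 28 tested subunit genes lower and 0 higher after BRD8 siRNA in limma, with a median log2 fold change of -0.14. Over all genes tested 8.93% were lower and 10.1% higher, with a median of -0.01, the values beside which the counts of this and the following lists stand. At an unadjusted p under 0.05, and with edgeR and DESeq2, 1 gene was higher, CBX6. SCML1, a relative of the Sex comb on midleg proteins, fell to 458 ± 19 normalized counts after BRD8 siRNA, against 778 ± 104 after control siRNA (SD, n = 3 each; log2 fold change -0.75, limma, Benjamini-Hochberg adjusted p = 0.00266). DCAF7, a WD repeat protein of some PRC1 forms, fell with a log2 fold change of -0.54 (limma, Benjamini-Hochberg adjusted p = 0.0098). PHC1, a Polyhomeotic homolog, fell by 0.52 on the log2 scale (limma, Benjamini-Hochberg adjusted p = 0.0117), and BCORL1, a corepressor of a variant PRC1, fell by 0.48 (limma, Benjamini-Hochberg adjusted p = 0.0177). PCGF2, E2F6 and CBX7 were the other 3 that fell. The catalytic subunit RNF2 had 847, 920 and 880 normalized counts after BRD8 siRNA and 986, 884 and 1012 after control siRNA, with overlap. The count of PRC1 genes lower was 1 to 9 when 1 library was left out. It was 1 without control library 3, 3 without BRD8 library 2, BRD8 library 3 or control library 1, and 9 without control library 2. Over all genes, calls in either direction ranged from 1360 without control library 3 to 5229 without control library 2, with 2920 as reported.

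RBBP4 and RBBP7 also serve chromatin assembly factor CAF-1 and the deacetylase complexes NuRD and SIN3, and 5 of the 18 other subunits of these fell. Of the 18, 0 rose in limma, edgeR or DESeq2 or at an unadjusted p under 0.05, and the median log2 fold change was -0.20, where 8.93% of all genes were lower. CHAF1B, a CAF-1 subunit, fell to 388 ± 13.3 normalized counts after BRD8 siRNA, against 540 ± 30.4 after control siRNA (SD, n = 3 each; log2 fold change -0.48, limma, Benjamini-Hochberg adjusted p = 0.00689). Its partner CHAF1A fell by 0.35 on the log2 scale (limma, Benjamini-Hochberg adjusted p = 0.0268), and MTA1, a NuRD subunit, by 0.36 (limma, Benjamini-Hochberg adjusted p = 0.0265). The deacetylase HDAC2 fell to 4443 ± 70.4 normalized counts after BRD8 siRNA, against 5171 ± 59.3 after control siRNA (SD, n = 3 each; log2 fold change -0.22, limma, Benjamini-Hochberg adjusted p = 0.0413). The fifth was GATAD2B. The HDAC2 call was lost in 10 of 17 alternatives. The count of genes lower was 1 without BRD8 library 3, control library 1 or control library 3, 2 without BRD8 library 1 or 2, and 10 without control library 2. Calls over all genes in either direction also ranged widely, from 1360 without control library 3 to 5229 without control library 2, with 2920 as reported.

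Complexes that remove or oppose the Polycomb marks come next, where 8.93% of all genes were lower and 10.1% higher. Of 9 tested subunits of PR-DUB, the complex that removes ubiquitin from histone H2A, the forkhead proteins FOXK2 and FOXK1 fell by 0.29 and 0.32 on the log2 scale (limma, Benjamini-Hochberg adjusted p = 0.0225 and 0.0431). Of the 9, 0 rose in limma, edgeR or DESeq2 or at an unadjusted p under 0.05. Both calls were lost when any library other than control library 2 was left out. Of 7 H3K27 demethylases and subunits of the MLL3 and MLL4 methyltransferase complexes, 0 passed the test in limma, edgeR or DESeq2, and 0 had an unadjusted p under 0.05. The demethylase KDM6A had 1697 ± 99.3 normalized counts after BRD8 siRNA and 1730 ± 212 after control siRNA, and KDM6B had 965 ± 64.1 after BRD8 siRNA and 882 ± 75.8 after control siRNA (SD, n = 3 each). KMT2C had a log2 fold change of 0.08 (SE 0.198), which turned to -0.18 without control library 2. NCOA6 had one of -0.18 (SE 0.0916), which was -0.25 and called without that library. In all, leaving out control library 2 brought 3 genes of this list to a call as lower, KMT2D, NCOA6 and PAXIP1, and with the trend taken out 1, PAGR1, was lower.

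Genes that PRC2 is reported to silence in other cells were looked at from a pair of lists. Of 39 HOX cluster genes 15 were tested, 7 had 0 reads in all libraries, and the median log2 fold change was 0.03. HOXA3, a homeodomain factor of anterior patterning, was the only one past the threshold, with 43.6 ± 1.08 normalized counts after BRD8 siRNA and 71.4 ± 3.03 after control siRNA (SD, n = 3 each; log2 fold change -0.70, limma, Benjamini-Hochberg adjusted p = 0.0132). Its call was lost without BRD8 library 3, control library 1 or control library 3. At an unadjusted p under 0.05, 1 HOX gene was lower and 2 were higher, HOXB5 and HOXB6, both without overlap of the groups. The most abundant HOX genes, HOXB3 and HOXB7, had 1031 ± 81.6 and 621 ± 43.1 normalized counts after BRD8 siRNA and 929 ± 52.3 and 648 ± 77.2 after control siRNA.

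Of 24 other reported targets 16 were tested, 5 rose and 2 fell, with a median log2 fold change of 0.20. CDH1, the epithelial cadherin and also 1 of the epithelial markers above, rose to 22112, 21115 and 22925 normalized counts after BRD8 siRNA, against 16369, 14460 and 16479 after control siRNA (log2 fold change 0.49, limma, Benjamini-Hochberg adjusted p = 0.00394). CDKN2B, an inhibitor of cyclin D kinases, rose to 3850 ± 129 normalized counts after BRD8 siRNA, against 2714 ± 287 after control siRNA (SD, n = 3 each; log2 fold change 0.51, limma, Benjamini-Hochberg adjusted p = 0.0053). The chemokine CXCL10 rose by a log2 fold change of 0.40 (limma, Benjamini-Hochberg adjusted p = 0.0103), and DAB2IP and BMP2 were the others that rose. The transcription factor gene RUNX3 moved the other way and by the most, with 58.2, 54.1 and 60.9 normalized counts after BRD8 siRNA and 238, 265 and 209 after control siRNA (log2 fold change -2.02, limma, Benjamini-Hochberg adjusted p = 1.01e-04). CIITA also fell, a call that held without control library 2 and was lost without any other library. The neighbour of CDKN2B in the INK4 locus, CDKN2A, had 3499, 6513 and 5403 normalized counts after BRD8 siRNA and 4764, 4739 and 4066 after control siRNA, with the widest spread in the BRD8 group. Over all genes 10.1% were higher and 8.93% lower, with a median of -0.01. The number of these targets higher was 2 without BRD8 library 2 or control library 3 and 3 without BRD8 library 3. Calls over all genes in either direction were then 1569, 1360 and 1566, where 2920 were called as reported.

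EZH2 is known as a target of E2F factors, and genes of E2F and proliferation were set beside the members. Of 29 tested 18 fell and 0 rose in limma, and their median log2 fold change was -0.35, where 8.93% of all genes were lower. At an unadjusted p under 0.05 the count higher was also 0, as it was with edgeR and DESeq2. The replication helicase gene MCM6 had 1462, 1463 and 1428 normalized counts after BRD8 siRNA and 1843, 1881 and 1983 after control siRNA. The topoisomerase TOP2A had 30864, 28413 and 31881 normalized counts after BRD8 siRNA and 61603, 50332 and 67137 after control siRNA (log2 fold change -0.97, limma, Benjamini-Hochberg adjusted p = 9.09e-04). The kinases CDK1 and AURKA and the cyclin CCNB1 fell by 0.59, 0.64 and 0.66 on the log2 scale (limma, Benjamini-Hochberg adjusted p = 9.77e-04, 0.00186 and 0.0019). The number that fell was 11 without control library 3, and 13 to 18 with any other library left out. Calls over all genes in either direction were 1360 without control library 3 and 2920 as reported. SUZ12 and EZH2 were lower along with these 18. Of the 11 not called, E2F1, MCM3, MCM7 and CDC6 were lower without overlap, as were 17.9% of all genes, and the others had overlapping groups. E2F2 had the highest log2 fold change of the list (0.13), followed by PCNA (-0.04) and CCNE2 (-0.06). The part of cell division in the values of the members was not tested. In a bulk sample, fewer dividing cells and less RNA per cell cannot be told apart.

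**Figure D5:**
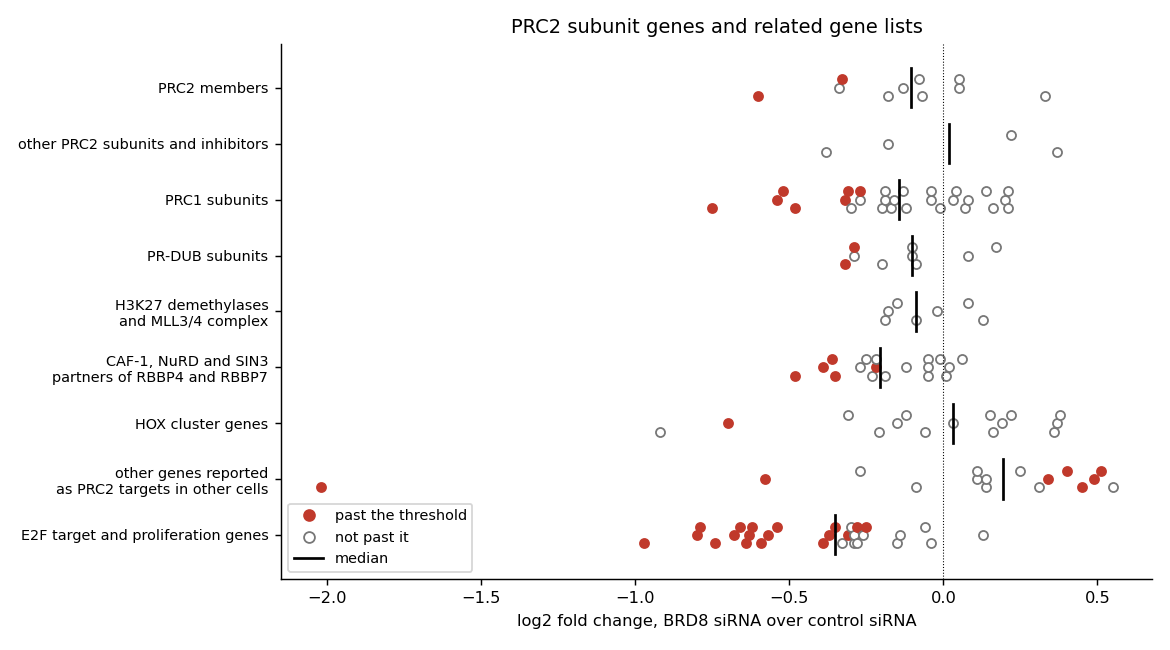
Log2 fold change of each tested gene, BRD8 siRNA over control siRNA, for the PRC2 members and the 8 related lists, with filled points past the threshold over all genes and a bar at the list median. The medians run from -0.35 in the E2F and proliferation genes to 0.20 in the other reported targets, with the members at -0.11, and RUNX3 lies at -2.02.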

How the data were processed

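The data are RNA-seq of 6 Calu3 libraries, with groups and replicate numbers from the sample titles. The shared extraction protocol in the labels speaks of HBE cells, and the titles were followed. Per the submitters' processing notes, the tools were STAR 2.6, featureCounts 1.6.3 of Subread and DESeq2 1.22.1, with genome build hg19; the annotation is not given in the sources used here, nor is the strand setting. The deposited expression values are a normalized signal, counts that the authors scaled by 1 size factor per library. The deposited table also holds the authors' comparison: a log2 fold change with its standard error, a test score, and p-values before and after adjustment. For 4756 genes with 0 reads in all libraries it gives no comparison.

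Whole reads were recovered from the values of each library, 100% of them within 0.01 of a whole number. A floor of 3 reads corresponds to 2.84 to 3.24 normalized counts and covers counting error only. Libraries of a group differed by more than sampling noise (chi-square per degree of freedom 6.29 to 48.7), so reads were not pooled and each library counted once. That spread does not show whether the libraries were separate cultures. The test was limma 3.58.1 (R 4.3.3), fitted with its trend option to log2(normalized count + 1) of the 15354 genes averaging 10 or more, without covariates and with Benjamini-Hochberg adjustment at 0.05 over all of them. Fold changes are on that log2 scale and are too small for genes of low count. The alternatives were pseudocounts of 0.5 and 5, no filter, a mean of at least 50, quantile and TMM scaling, edgeR 4.0.16 and DESeq2 1.42.0 on the recovered reads, the authors' deposited comparison, the replicate block, a trend with length and GC content taken out, and each library left out in turn.

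The members, the lists and the rule for naming genes were chosen with earlier results of these data known. Named are the 10 members, BRD8, in each list the 4 called genes of smallest adjusted p at most (the 2 of highest mean if 0 passed), and the 5 genes most like EZH2 and most like EZH1. Other genes (SUZ12P1, SYNC, TXLNG, LUM, COL1A1, CD68, KDM6A, KDM6B, RNF2, HOXB3, HOXB7, CDKN2A, MCM6, E2F2, PCNA, CCNE2, LCORL, EZHIP and list genes given by name only) were chosen after their values were seen. Exon lengths, GC content and overlaps came from GENCODE v29, matched by symbol for 23747 of 26364 genes, and promoters from RefSeq on GRCh38.p14, where all 10 members were matched. Both builds differ from that of the data.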

Additional observations from a re-analysis of the deposited data

How the results depend on the processing

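In sensitivity to the settings, the count of members lower was 2 as reported and 1 to 2 when 1 library was left out, and no member was higher as reported or with a library left out. With the replicate block 1 member, JARID2, was higher, as it was with the trend of length and GC content taken out. With the block and with the trend taken out, as in DESeq2 and the authors' deposited comparison, PHF1 joined the members that were lower, which made 3. Over all genes 1549 were higher and 1371 lower as reported. Leaving out 1 library gave 832 to 2445 higher and 528 to 2784 lower, the highest counts without control library 2 and the lowest without control library 3. The trend taken out gave 2687 lower. Over the related lists 5 genes were higher and 35 lower as reported. Leaving out 1 library gave 2 to 6 higher and 14 to 49 lower, and the trend taken out gave 10 higher. The cause of these differences was not tested. No value of a named gene or member that had passed the threshold changed sign. Whether libraries of the same replicate number were paired is not known from the labels. Deviations of same-numbered libraries correlated at -0.0845, 0.335 and 0.155 for numbers 1, 2 and 3. Those of differently numbered BRD8 and control libraries correlated at -0.361 to 0.326. The block called 3901 genes where 2920 were called without it. The limits are 3 libraries per group, 1 siRNA reagent against BRD8, a control library that stands apart and unstranded reads. RNA levels say nothing of PRC2 protein or of the histone mark.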

Other observations

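The genes whose pattern was closest to that of SUZ12 were looked up by the same measure after its values were seen. They were AP3M1 at a root-mean-square log2 difference of 0.0352, VANGL2 at 0.0361, DEPDC1 at 0.0364, CUL4B at 0.0376 and KIAA1524 at 0.0408, over 6 libraries and 13081 genes, where the median gene was at 0.339. All 5 were lower after BRD8 siRNA in limma over all genes, with log2 fold changes of -0.59 to -0.68. Because they were picked for likeness to SUZ12, which was itself lower, their direction and size follow mainly from that choice.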
